A study of Sus scrofa with 18 samples.

Results

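The transition from 4-cells to blastocysts in cloned pig embryos derived from vitrified zygotes is described here through 6 of the 18 libraries of the series, 3 of vitrified blastocysts and 3 of vitrified 4-cells. Vitrified blastocysts were collected 144 h after chemical activation with 1 embryo per library, and vitrified 4-cells 48 h after it with 2 embryos pooled per library. All embryos, fresh ones included, were made by somatic cell nuclear transfer of cultured ear cells of Diannan miniature pigs into enucleated oocytes, which came from slaughterhouse ovaries of pre-pubertal pigs and were matured in vitro. The reconstructed zygotes were activated with an electric pulse followed by cytochalasin B, and those called vitrified were then cooled with ethylene glycol on a Cryotop carrier, stored in liquid nitrogen and warmed in sucrose before culture. Fresh blastocysts and fresh 4-cells, 3 libraries each, went through the same steps without cooling and serve as a second measurement of the transition and as its reference points, and 3 libraries of fresh 2-cells, collected at 24 h with 4 embryos per library, serve as an earlier reference point. The libraries of the later stage were made from other embryos than those of the earlier stage, so that no embryo was followed from one stage to the next.

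A gene was compared when it reached 1 FPKM (fragments per kilobase, scaled to the fragments of the library, a level per transcript length) in 3 or more of the 6 vitrified libraries, which 9155 of the 24358 listed genes did. Changes are vitrified blastocyst minus vitrified 4-cell on the scale of log2(FPKM + 1), and a gene is said to have risen or fallen when limma gave an adjusted p under 0.05 and a change of more than 1 on that scale. The scale understates the change of low genes, and a value of 0.0001 FPKM is how the deposited tables list most zeros. FPKM values are shares of the mRNA in a library, and in libraries of whole embryos fewer cells of a type and less RNA per cell cannot be told apart.

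The first cleavages of a mammalian embryo run on mRNA and protein that the oocyte stored. In the pig, the embryo's own genome becomes widely transcribed around the 4-cell stage, while the stored mRNA is deadenylated and degraded. By the blastocyst stage the cells have compacted and pumped up a cavity, an outer epithelium (the trophectoderm) surrounds an inner cell mass, and the inner cells divide into the epiblast, which keeps pluripotency, and the hypoblast. In a cloned embryo this program has to start from the nucleus of a body cell.

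Vitrified blastocyst libraries held 7717 to 7834 genes at 1 FPKM or more, and vitrified 4-cells held 8230 to 8672. The files carry no read counts, so depth behind a value is unknown, and precision was judged from the spread between libraries alone. One library stood apart: vitrified 4-cell 3 correlated at 0.80 and 0.76 with vitrified 4-cells 1 and 2 over the genes tested, which correlated at 0.93 with each other, and values without it are given beside the results that it moves most. Of 17 cumulus and granulosa markers in the files 1 was tested, and their summed level was 1.48 to 3.10 FPKM in vitrified blastocysts and 14.7 to 20.5 FPKM in vitrified 4-cells. For 19 fibroblast markers the sums were 3.48 to 17.4 FPKM in vitrified blastocysts and 75.1 to 136 FPKM in vitrified 4-cells. S100A4 made up most of the 4-cell sum: it was listed at 0.0001 in every vitrified blastocyst and had 114, 62.8 and 63.9 FPKM in the vitrified 4-cells. The collagen COL1A1, a defining fibroblast marker, was at 0.0642, 0.272 and 0.00512 FPKM in vitrified blastocysts and 1.53, 1.65 and 1.19 FPKM in vitrified 4-cells. Of the 5 fibroblast markers tested, 4 were lower in vitrified blastocysts and 1, TAGLN, was higher, by 1.89 on the log2 scale. TAGLN had 5.83, 1.99 and 17.0 FPKM in vitrified blastocysts, most of the sums there, and 0.805, 1.84 and 0.403 FPKM in vitrified 4-cells. For 10 blood cell markers the sums were 5.07 to 57.7 FPKM in vitrified blastocysts and 2.16 to 6.21 FPKM in vitrified 4-cells. Their part in the results below was not tested.

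Between vitrified 4-cells and vitrified blastocysts, 2470 genes rose, 27.0% of those tested, and 3080 fell, 33.6%. These 2 percentages are the background against which every group of genes below is read, and a count near them is not a result about the group. In 2765 genes every vitrified blastocyst lay above every vitrified 4-cell, and in 3430 every one lay below. These counts are partly fixed by the filter. A gene under 1 FPKM in all libraries of a stage was tested only if all 3 libraries of the other stage reached 1 FPKM. Among the genes that rose, 154 were listed at 0.01 FPKM or less in all 3 vitrified 4-cells, and among those that fell, 295 were at that level in all 3 vitrified blastocysts. The median change of all genes was -0.23. It moved to -0.03 with quantile normalization, to 0.05 with scaling by the median ratio and to -0.45 when libraries were scaled to an equal sum, so small changes have no direction of their own. Leaving out 1 library at a time, with the same genes tested, gave 2134 to 2867 rises and 2534 to 3366 falls, and 4330 genes kept their call in all 6 of these fits.

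KRT18, which with KRT8 forms the keratin filaments of simple epithelia, had 1918, 1509.9 and 1322 FPKM in the vitrified blastocysts and was listed at 0.0001 FPKM in all 3 vitrified 4-cells, a change of 10.61 (SE 0.39, n = 3 each, limma adjusted p = 7.64e-06). KRT8 had 1363, 620.1 and 559 FPKM in vitrified blastocysts, against 0.0001, 0.0001 and 0.116 FPKM in vitrified 4-cells. NUPR1, a small chromatin protein induced by stress, reached 1520.4, 4425 and 2681 FPKM in vitrified blastocysts, against 0.0001, 0.912 and 2.83 FPKM in vitrified 4-cells. All 3 genes were under 3 FPKM in every vitrified 4-cell. Among genes with a symbol, the other 7 of the 10 highest rises were FCER1G, the signalling chain of Fc receptors, UPP1, a uridine phosphorylase, BEX4, the lysosomal protease CTSD, the proton pump subunit ATP6V1G3, RGN, a calcium-binding lactonase, and PDPN, a membrane glycoprotein, with changes of 8.34 to 9.72.

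H1FOO, the linker histone of the oocyte, had 0.0001, 0.0001 and 0.924 FPKM in the vitrified blastocysts, against 1798, 1624 and 798 FPKM in the vitrified 4-cells, the deepest fall among genes with a symbol, at -10.06 (SE 0.50, limma adjusted p = 9.25e-06). MCUB, which holds back the mitochondrial calcium channel, had 0.103, 0.0001 and 1.48 FPKM in vitrified blastocysts, against 1809.9, 2218 and 595 FPKM in vitrified 4-cells. DNMT1, which copies DNA methylation to the new strand after replication, had 0.908, 1.83 and 3.87 FPKM in vitrified blastocysts, against 1762, 2158 and 695 FPKM in vitrified 4-cells. In each of these genes the lowest of the 3 vitrified 4-cells was replicate 3, and it still lay far above the blastocysts. Among genes with a symbol, the other 7 of the 10 deepest falls were TRIM77, the metallothionein MT2A, the oocyte kinase WEE2, NLRP9, the importin KPNA7, the growth factor BMP15 and BTG4, with changes of -9.07 to -8.47.

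**Figure D1:**
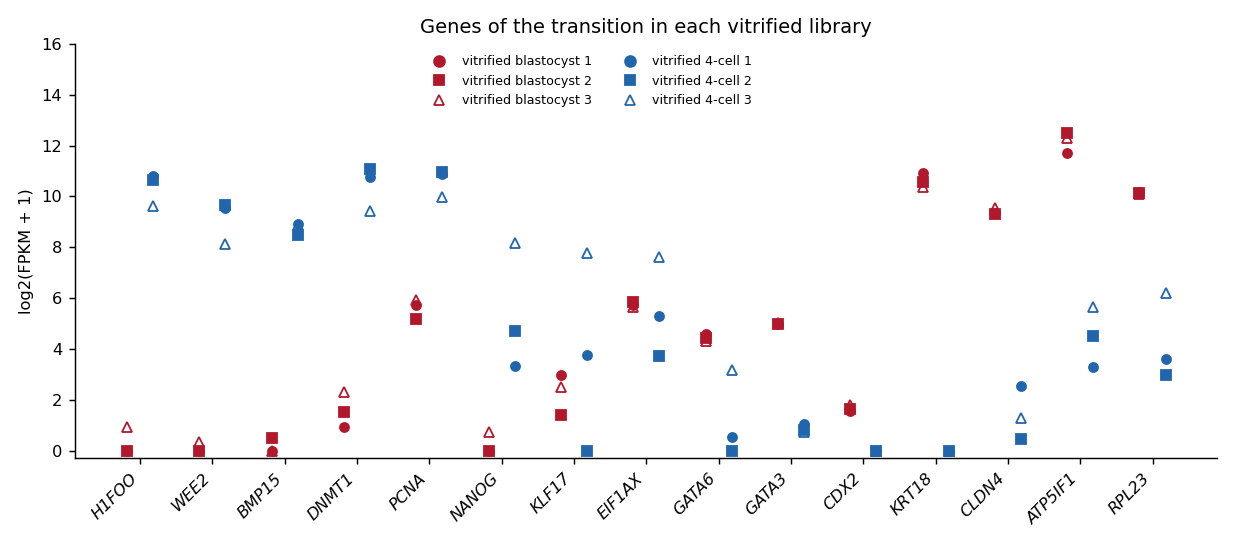
Levels of 15 genes as log2(FPKM + 1) in each of the 3 vitrified blastocyst libraries (red, left of each gene) and the 3 vitrified 4-cell libraries (blue, right), with 1 symbol per replicate. The oocyte genes H1FOO, WEE2 and BMP15 are near 0 in all blastocysts, and CDX2 and KRT18 are near 0 in all 4-cells. Vitrified 4-cell 3 (open blue triangles) stands apart in NANOG, KLF17, EIF1AX, GATA6 and RPL23.

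Of the oocyte and egg coat genes 28 of 31 were tested, and 27 fell, with a median change of -5.84. ZP3, a glycoprotein of the egg coat, had 0.154, 0.0001 and 0.0001 FPKM in vitrified blastocysts, against 21.5, 20.5 and 16.3 FPKM in vitrified 4-cells. GDF9, a growth factor that the oocyte sends to the cells around it, had 0.642, 0.895 and 1.07 FPKM in vitrified blastocysts and 63, 84.2 and 41.3 FPKM in vitrified 4-cells, and OOEP, a part of the maternal complex under the cell membrane, had 0.237, 0.0001 and 0.0001 FPKM in vitrified blastocysts and 330.0, 438 and 39.8 FPKM in vitrified 4-cells. The groups did not overlap in any of the 27 genes, and all 27 falls were kept whichever library was left out. A gene under 1 FPKM in every vitrified blastocyst, such as ZP3 or OOEP, was tested only if all 3 vitrified 4-cells reached 1 FPKM. For such genes the lack of overlap is fixed by that filter and is not read as a result. The exception was PLAC1, a placental gene carried on this list, at 2.0, 0.766 and 3.42 FPKM in vitrified blastocysts and 0.0001, 0.0001 and 1.16 FPKM in vitrified 4-cells. Its rise of 1.14 was called in 2 of the 6 fits that left out a library.

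The enzymes that remove stored mRNA fell in part. BTG4, which ties the CCR4-NOT deadenylase to maternal mRNA, had 0.0001, 0.0811 and 0.379 FPKM in vitrified blastocysts and 686, 727 and 131 FPKM in vitrified 4-cells, and 22 of 43 tested members of the maternal mRNA decay machinery fell while 2 rose (median change -1.31). With no filter on low values 14 fell, and 4 rose with quantile normalization and 5 under the median ratio. CPEB1, which holds oocyte mRNA silent until polyadenylation, had 0.0526, 0.0314 and 0.0001 FPKM in vitrified blastocysts, against 37.7, 37.8 and 6.34 FPKM in vitrified 4-cells. The CNOT genes CNOT2, CNOT4, CNOT6, CNOT6L, CNOT7, CNOT8 and CNOT9 fell, whereas CNOT1, the scaffold of the CCR4-NOT complex, had a change of -0.35 (limma adjusted p = 0.566). Both members that rose bind poly(A) tails: PABPC1 had 93.9, 144 and 136 FPKM in vitrified blastocysts and 17.7, 4.36 and 19.9 FPKM in vitrified 4-cells, and PABPC4 rose by 3.18.

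Genome activation genes, which are factors that start or mark embryonic transcription, differed among the 4-cells. Of 29 tested members 2 rose and 9 fell (median change -1.14), beside 27.0% and 33.6% of all genes, so the falls were near the background. EIF1AX, a translation initiation factor and a marker of genome activation in pig embryos, had 52.4, 57 and 49 FPKM in vitrified blastocysts and 38.4, 12 and 196 FPKM in vitrified 4-cells, so that the 3 blastocysts were alike while the 4-cells lay on both sides of them. KLF17, a zinc finger factor of early cleavage, had 6.9, 1.62 and 4.58 FPKM in vitrified blastocysts and 12.5, 0.0001 and 218 FPKM in vitrified 4-cells. The transcription factor NFYA fell by 2.95 (limma adjusted p = 0.00504), with 1.24, 0.950 and 1.14 FPKM in vitrified blastocysts and 14.4, 4.93 and 46 FPKM in vitrified 4-cells. Over the list, mean log2 levels were 3.02, 3.02 and 3.09 in the vitrified blastocysts, against 3.91, 2.9 and 4.9 in the vitrified 4-cells. Without vitrified 4-cell 3 there were 7 rises and 10 falls with a median change of -0.34, and without vitrified 4-cell 2 there were 15 falls.

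Trophectoderm genes rose as a group: 27 of 37 tested members rose and 4 fell, with a median change of 2.13. GATA3, one of the transcription factors that specify this epithelium, had 30.4, 30.5 and 31.5 FPKM in the vitrified blastocysts, against 1.06, 0.728 and 0.641 FPKM in the vitrified 4-cells (change 4.14, SE 0.38, limma adjusted p = 7.69e-05). GATA2 had 27.9, 21.4 and 17.7 FPKM in vitrified blastocysts and 0.0001, 0.0001 and 0.226 FPKM in vitrified 4-cells. CDX2, the caudal factor that marks trophectoderm, was low, at 1.96, 2.07 and 2.45 FPKM in vitrified blastocysts, and was listed at 0.0001 in every vitrified 4-cell. GATA3 did not overlap between the stages and differed little among the blastocysts. GATA2 and CDX2 were under 1 FPKM in every vitrified 4-cell, so they were tested only because all 3 vitrified blastocysts reached 1 FPKM. Their lack of overlap is fixed by that filter and is not read as a result. TEAD4, the DNA-binding partner of YAP1, rose by 1.61 (limma adjusted p = 0.0207), with 4.46, 6.47 and 3.85 FPKM in vitrified blastocysts and 0.308, 0.273 and 3.15 FPKM in vitrified 4-cells, and its call was kept in 2 of the 6 fits that left out a library. PTGES and PTGS2, which make prostaglandin E2, rose by 5.24 and 5.70, and DAB2, an endocytic adaptor, rose by 6.68. YAP1 itself, PPARG, BMP4 and GRHL2 fell. YAP1 had 1.67, 2.16 and 1.6 FPKM in vitrified blastocysts and 24.8, 7.55 and 2.55 FPKM in vitrified 4-cells, a fall that only just passed (limma adjusted p = 0.048).

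Genes of pluripotency did not move together. Of 20 tested members 3 rose and 9 fell, with a median change of -1.28, and of -0.50 without vitrified 4-cell 3. The number that rose was 1 without vitrified 4-cell 2 or any single vitrified blastocyst, and 1 with no filter on low values. NANOG, a homeodomain factor of the epiblast, had 0.0001, 0.0001 and 0.674 FPKM in the vitrified blastocysts, against 8.97, 25.4 and 289 FPKM in the vitrified 4-cells, a change of -5.16 (SE 1.05, limma adjusted p = 0.00257). The level in vitrified 4-cell 3 was far above that of the others, yet all 3 exceeded the blastocysts. As no vitrified blastocyst reached 1 FPKM, the filter required all 3 vitrified 4-cells at that level, so this order is not read as a result. SOX2 stayed below the filter, at 0.0001, 0.0404 and 0.209 FPKM in vitrified blastocysts and 0.654, 0.373 and 1.28 FPKM in vitrified 4-cells, and POU5F1 was not analysed here. TDGF1, a co-receptor for NODAL, rose to 61.1, 17.3 and 60.2 FPKM in vitrified blastocysts, against a listing of 0.0001 in every vitrified 4-cell. ZFP42, a zinc finger marker of pluripotent cells, was at 70.8, 34.4 and 31.1 FPKM in vitrified blastocysts and 0.0001, 2.72 and 28.3 FPKM in vitrified 4-cells, so that vitrified 4-cell 3 was close to the lowest blastocyst, and its rise was kept in 1 of the 6 fits that left out a library. DPPA5, an RNA-binding protein of pluripotent and germ cells, fell to 131, 161 and 195 FPKM in vitrified blastocysts, against 2874, 2906 and 1642 FPKM in vitrified 4-cells.

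Hypoblast genes were mostly under the filter: 11 of 36 in the files were tested, of which 4 rose and 3 fell. The median change was -0.47, but the mean level of the 11 was 2.47, 2.11 and 2.76 in vitrified blastocysts and 1.92, 1.5 and 1.41 in vitrified 4-cells, so that the mean went the other way. With no filter on low values 2 rose, and without vitrified 4-cell 3 the median was -0.31. GATA6, an early hypoblast factor, had 22.7, 20.3 and 18.6 FPKM in vitrified blastocysts, against 0.460, 0.0001 and 8.09 FPKM in vitrified 4-cells, and rose by 3.18 (limma adjusted p = 0.00573). SOX17, a later factor of the lineage, was listed at 0.0001 in all 6 libraries, and GATA4 and PDGFRA had changes of -0.53 and -0.47 (limma adjusted p = 0.262 and 0.339). The apolipoprotein APOA2 had 1037, 349.7 and 419 FPKM in vitrified blastocysts, against 4.64, 0.0001 and 0.0001 FPKM in vitrified 4-cells. The basement membrane genes NID2 and SPARC fell, by 2.16 and 2.04.

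A blastocyst needs a sealed epithelium that moves water inward. Of 37 tested genes of cell junctions and cavitation 16 rose and 6 fell. Their median change was 0.16, 0.04 without vitrified 4-cell 3 and -0.06 when libraries were scaled to an equal sum, so the list as a whole had no firm direction. The claudins CLDN4 and CLDN6, which seal tight junctions, rose: CLDN4 was at 657, 635 and 739.5 FPKM in vitrified blastocysts and 4.85, 0.360 and 1.4 FPKM in vitrified 4-cells, and CLDN6 at 809, 178 and 184 FPKM in vitrified blastocysts and 0.356, 0.0001 and 20.2 FPKM in vitrified 4-cells. The gap junction gene GJB5, the desmosome gene PKP2 and the polarity kinase PRKCZ rose by 4.65 to 5.07. AQP3, a channel for water and glycerol, had 33.2, 11.1 and 14.9 FPKM in vitrified blastocysts, against 0.0847, 0.0572 and 0.0001 FPKM in vitrified 4-cells. CDH1, the cadherin of compaction, had 9.38, 13.9 and 46.5 FPKM in vitrified blastocysts and 63.5, 87.6 and 33.8 FPKM in vitrified 4-cells, and its change of -1.58 did not pass (limma adjusted p = 0.0568).

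Cytoskeletal actin also rose. ACTB had 525, 520.3 and 729 FPKM in vitrified blastocysts and 29.8, 18.5 and 14.4 FPKM in vitrified 4-cells, and ACTG1, the other cytoplasmic actin, had 1845, 1524 and 1787 FPKM in vitrified blastocysts and 85.3, 64.4 and 28.4 FPKM in vitrified 4-cells. Of 32 tested actin and microvillus genes 16 rose and 6 fell (median change 1.86). Within the family that links membrane to actin, members went opposite ways: moesin (MSN) rose by 5.58 and ezrin (EZR) by 2.18, while radixin (RDX) fell by 2.75.

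Genes of protein synthesis and respiration rose together. Of 58 cytosolic ribosomal protein genes 53 rose and none fell, and the changes of all 58 ran from 1.14 to 5.89 (median 3.11). With no filter on low values 33 rose. RPL23 had 1168, 1135 and 1099 FPKM in vitrified blastocysts, against 11.2, 6.92 and 72.3 FPKM in vitrified 4-cells, and RPS12 had 655, 919 and 677 FPKM in vitrified blastocysts and 15.5, 6.73 and 43 FPKM in vitrified 4-cells. Vitrified 4-cell 3 was the highest of the vitrified 4-cells in both genes, and fresh 4-cell 3 of the fresh ones, at 97.6 and 62.1 FPKM. Mean log2 levels over the list were 9.32, 9.64 and 9.36 in the vitrified blastocysts and 5.88, 5.43 and 7.61 in the vitrified 4-cells. Ribosomal protein genes have many near-identical processed copies, and reads shared with these copies make single values of this family uncertain.

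Nuclear genes for oxidative phosphorylation, the respiratory chain and ATP synthase, rose in 61 of 67 cases, with 1 fall and a median change of 3.49. ATP5IF1, the inhibitor of ATP synthase, had 3305, 5765 and 5051 FPKM in vitrified blastocysts, against 8.75, 22 and 48.9 FPKM in vitrified 4-cells (change 7.68, SE 0.61, limma adjusted p = 4.24e-05). NDUFA12 of complex I had 557, 726 and 715 FPKM in vitrified blastocysts and 2.89, 7.49 and 2.18 FPKM in vitrified 4-cells, and CYC1 of complex III had 979, 803 and 952 FPKM in vitrified blastocysts and 7.57, 8.43 and 14.4 FPKM in vitrified 4-cells. The fall was in NDUFA1, by 1.45, and it was no longer called when the median ratio set the scale or in 4 of the 6 fits that left out a library.

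The 13 protein genes of the mitochondrial genome did not follow their nuclear partners. None rose and 4 fell, with a median change of -0.63, and the smallest changes in this list move with the scale. ATP6 had 4304, 4197 and 4527 FPKM in vitrified blastocysts, against 39900.0, 41585 and 33454 FPKM in vitrified 4-cells, and fell by 3.14 (limma adjusted p = 0.000112). COX1, ND1 and CYTB fell by 1.21, 1.13 and 1.02. Under the median ratio 1 gene fell, and so did 1 when vitrified 4-cell 1, vitrified 4-cell 2 or vitrified blastocyst 1 was left out, against 2 without vitrified blastocyst 2 and 0 with no filter. Copies of mitochondrial sequence in nuclear chromosomes can share these reads.

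**Figure D2:**
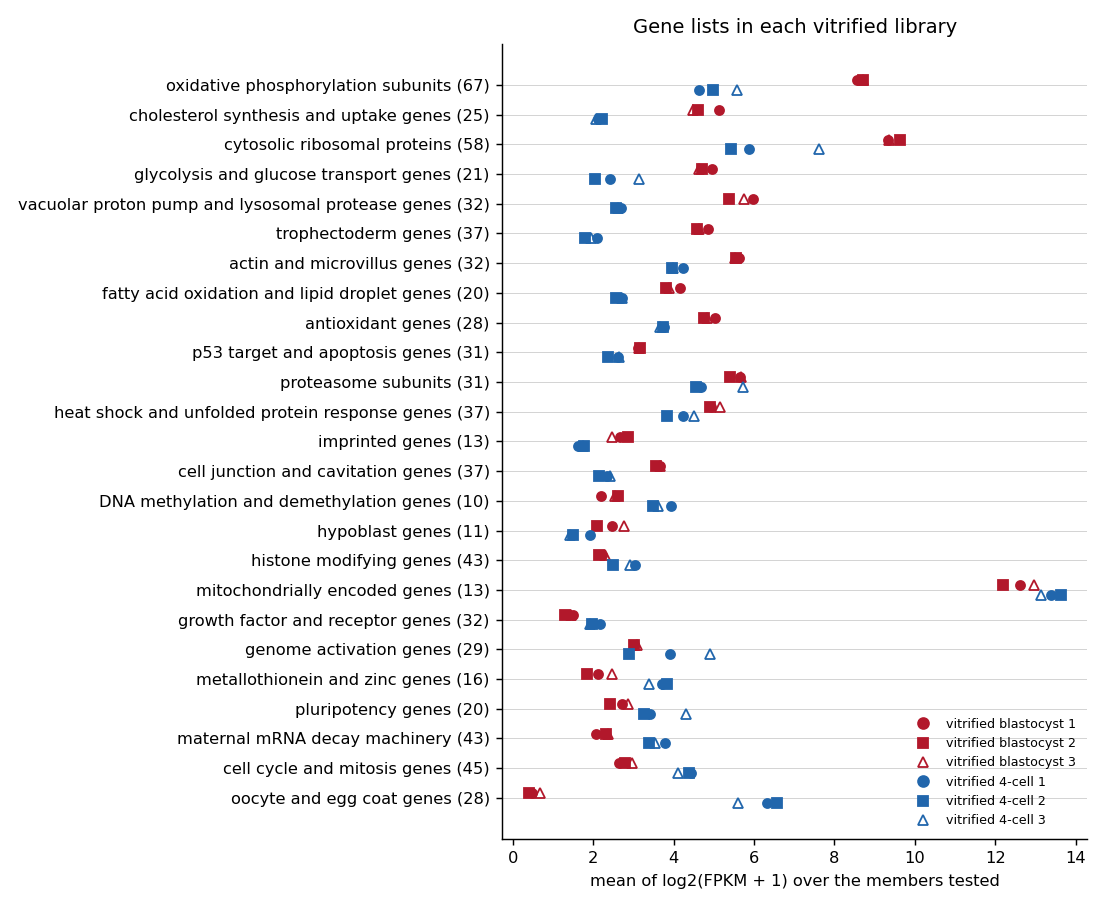
Mean log2(FPKM + 1) over the tested members of each gene list (number in parentheses) in each vitrified blastocyst (red, upper of each pair) and vitrified 4-cell (blue, lower), sorted by the median change with the most positive at the top. Vitrified 4-cell 3 (open blue triangles) lies apart from the other 4-cells in ribosomal proteins, proteasome subunits, genome activation and pluripotency genes.

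Glycolysis and glucose transport genes rose in 13 of 21 cases and fell in 2 (median change 2.79), and the 2 falls were lost under the median ratio and without vitrified 4-cell 3, vitrified blastocyst 2 or vitrified blastocyst 3. ENO1, the enolase of the pathway, had 305, 202 and 188 FPKM in vitrified blastocysts and 3.17, 0.789 and 6.14 FPKM in vitrified 4-cells. GAPDH had 196, 127 and 142 FPKM in vitrified blastocysts and 5.89, 4.54 and 8.27 FPKM in vitrified 4-cells. Both genes were lowest among the 4-cells in replicate 2, and neither overlapped between the stages. The glucose transporter SLC2A2 rose by 3.51 and the hexokinase HK1 by 1.40.

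Cholesterol synthesis and uptake genes rose in 19 of 25 cases and fell in 2 (median change 3.30). NPC2, which hands cholesterol out of the lysosome, had 2060.1, 1195 and 1104 FPKM in vitrified blastocysts, against 11.1, 8.29 and 7.91 FPKM in vitrified 4-cells. MVD, which makes isopentenyl pyrophosphate, had 62.1, 38.8 and 24.3 FPKM in vitrified blastocysts and was listed at 0.0001 in every vitrified 4-cell. FDFT1, squalene synthase, went the other way and fell by 3.20. Of 20 tested fatty acid and lipid droplet genes 10 rose and 2 fell (median change 1.52). SCD, which makes monounsaturated fatty acids, had 82.5, 76.2 and 73.7 FPKM in vitrified blastocysts and 0.0311, 0.265 and 0.0673 FPKM in vitrified 4-cells, and PLIN2, a lipid droplet coat protein, had 374, 222 and 303 FPKM in vitrified blastocysts and 8.67, 22.8 and 13.3 FPKM in vitrified 4-cells. ACSL3, an acyl-CoA synthetase of the droplet, fell to 3.02, 4.15 and 3.22 FPKM in vitrified blastocysts, against 149.7, 172 and 31.8 FPKM in vitrified 4-cells.

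Genes of the vacuolar proton pump and of lysosomal hydrolases rose in 27 of 32 cases, with a median change of 2.70 and 1 fall that was lost in 5 of the 6 fits leaving out a library. The protease CTSD had 663, 319 and 305 FPKM in vitrified blastocysts, against 0.0001, 0.0001 and 0.0651 FPKM in vitrified 4-cells. The hexosaminidase subunit HEXA rose by 5.89, and ATP6V0C, the ring subunit of the pump, had 2223, 1661 and 1653 FPKM in vitrified blastocysts and 39.5, 63.5 and 49.4 FPKM in vitrified 4-cells. Proteasome subunits were less uniform, with 10 rises and 3 falls in 31 genes (median change 0.68), beside 27.0% and 33.6% of all genes. This count moved with single libraries: 18 rose without vitrified 4-cell 3, where the median was 1.14, 3 rose without vitrified 4-cell 1, vitrified blastocyst 2 or vitrified blastocyst 3, 6 without vitrified blastocyst 1, 6 with an equal sum and 6 with no filter.

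Of 16 tested metallothionein and zinc genes 7 fell and 3 rose (median change -1.14). MT2A, a metallothionein that binds zinc and copper, had 2.8, 0.0001 and 28.8 FPKM in the vitrified blastocysts, against 3504, 6339 and 774 FPKM in the vitrified 4-cells. Blastocysts spread widely in this gene, with an SD of 2.47 on the log2 scale, the second largest among the genes with a symbol. The zinc importers SLC39A10, SLC39A8 and SLC39A6 fell by 4.94, 3.58 and 3.40, while SLC39A1 rose by 2.72.

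Cell cycle genes fell in 26 of 45 cases and rose in 5 (median change -1.85). PCNA, the sliding clamp of replication, had 51.9, 35.1 and 59.3 FPKM in vitrified blastocysts, against 1890.0, 2012 and 994 FPKM in vitrified 4-cells. CCNB1, the mitotic cyclin, had 14.1, 49.1 and 34.2 FPKM in vitrified blastocysts and 267, 367 and 442 FPKM in vitrified 4-cells, and MOS, the kinase that holds the egg in metaphase, had 0.0001, 0.0471 and 0.319 FPKM in vitrified blastocysts and 109, 217 and 142 FPKM in vitrified 4-cells. Of the fallen members, MOS, WEE2, CCNB3 and AURKC are oocyte genes that the first list also holds. Those that rose were CDKN1A, CCNG1, CDK6, CDC26 and CDT1, and with no filter 1 rose.

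Among DNA methylation genes 3 of 10 rose and 4 fell (median change -0.36, and -0.54 without vitrified 4-cell 3). DNMT3A, a de novo methyltransferase, had 2.04, 4.14 and 2.4 FPKM in vitrified blastocysts, against 20.1, 9.17 and 11.8 FPKM in vitrified 4-cells, and UHRF2 fell to 1.07, 2.67 and 1.57 FPKM in vitrified blastocysts, against 392, 379.8 and 88.8 FPKM in vitrified 4-cells. TET1, which oxidises methylcytosine, rose, with 42.8, 35.9 and 39.2 FPKM in vitrified blastocysts and 1.67, 3.47 and 6.67 FPKM in vitrified 4-cells. TET3 and DNMT3B did not reach the filter. Of 43 tested histone modifying genes 16 fell and 6 rose, or 3 with no filter (median change -0.48), beside 33.6% and 27.0% of all genes. The share that fell was thus near that of all genes. The acetyltransferases KAT6A and KAT6B fell by 3.6 and 2.72 and the demethylase KDM5A by 2.90, whereas the deacetylases SIRT2 and HDAC1 rose by 3.44 and 2.27. Imprinted genes, expressed from 1 parental copy, rose in 5 of 13 cases and fell in 3 (1 with no filter), with a median change of 0.58, and of 1.31 without vitrified 4-cell 3. NNAT, a small membrane protein gene of this class, differed among blastocysts, with 21.7, 95.3 and 15 FPKM in vitrified blastocysts and 0.0646, 0.0001 and 0.0001 FPKM in vitrified 4-cells, and IGF2R rose by 2.92.

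Stress genes moved both ways. Of 31 tested p53 target and apoptosis genes 11 rose and 6 fell, beside 27.0% and 33.6% of all genes. Their median change was 0.74, and 1.38 without vitrified 4-cell 3. The falls were 3 without vitrified blastocyst 1 and 2 without vitrified blastocyst 3. The p53 targets MDM2 and GADD45A rose by 2.74 and 3.35, and CDKN1A rose by 2.11, a call kept in 2 of the 6 fits that left out a library. Of 37 heat shock and unfolded protein response genes 12 rose and 5 fell, or 2 with no filter (median change 0.62). The rises were near the 27.0% of all genes. XBP1, a transcription factor of the unfolded protein response, had 55.9, 50.8 and 38.7 FPKM in vitrified blastocysts and 0.490, 0.149 and 0.953 FPKM in vitrified 4-cells, and the chaperone HSPA5 rose by 2.25 (kept in 2 of those 6 fits), whereas the cochaperones DNAJA1 and DNAJB1 fell by 2.77 and 2.51. Antioxidant genes rose in 14 of 28 cases and fell in 6 (median change 1.46). MGST1, a microsomal glutathione transferase, had 172, 102 and 108 FPKM in vitrified blastocysts and was listed at 0.0001 in every vitrified 4-cell, and GSTM3 fell to 3.83, 7.33 and 2.08 FPKM in vitrified blastocysts, against 104, 159.7 and 269 FPKM in vitrified 4-cells.

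Growth factor and receptor genes fell in 14 of 32 cases and rose in 6 (median change -0.67), and 7 fell with no filter on low values. SPRED2, a brake on the RAS pathway, had 0.246, 0.611 and 0.592 FPKM in vitrified blastocysts, against 66.3, 34.3 and 21.1 FPKM in vitrified 4-cells. The BMP effectors SMAD1 and SMAD5 fell by 1.78 and 2.89, and the receptors EGFR, ERBB2 and ERBB3 rose by 2.03, 2.08 and 1.95. WNT6 was listed at 0.0001 in 2 of 3 vitrified 4-cells and had 11, 10.3 and 7.42 FPKM in the vitrified blastocysts.

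The spread between libraries was much smaller at the later stage. Over the 9155 genes, the median SD of log2(FPKM + 1) was 0.28 in the vitrified blastocysts and 0.64 in the vitrified 4-cells (n = 3 each), and 77.3% of genes had the larger SD in the 4-cells. Fresh blastocysts had 0.18 and fresh 4-cells 0.37, so the order of the stages was the same there. Vitrified blastocysts correlated with each other at 0.96 to 0.97. An SD over 1 was found for 205 genes in vitrified blastocysts and for 2269 genes in vitrified 4-cells. Those 2269 genes had a median SD of 0.28 in the vitrified blastocysts, and 68 of them, 3.0%, had an SD over 1 there, beside 2.24% of all genes tested. Genes on which the 4-cells differed were thus close to the average gene in their spread among the blastocysts. Without vitrified 4-cell 3, a comparison chosen after seeing the data, the median SD of the 2 remaining 4-cells was 0.30. Over pairs of libraries, which puts the stages on the same footing, the median SD was 0.18 to 0.25 in the 3 pairs of vitrified blastocysts, and 0.30, 0.63 and 0.67 in the vitrified 4-cell pairs 1 and 2, 1 and 3, and 2 and 3. All 4-cell pairs were thus above all blastocyst pairs, and both pairs with vitrified 4-cell 3 were more than 2 times the remaining one.

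**Figure D3:**
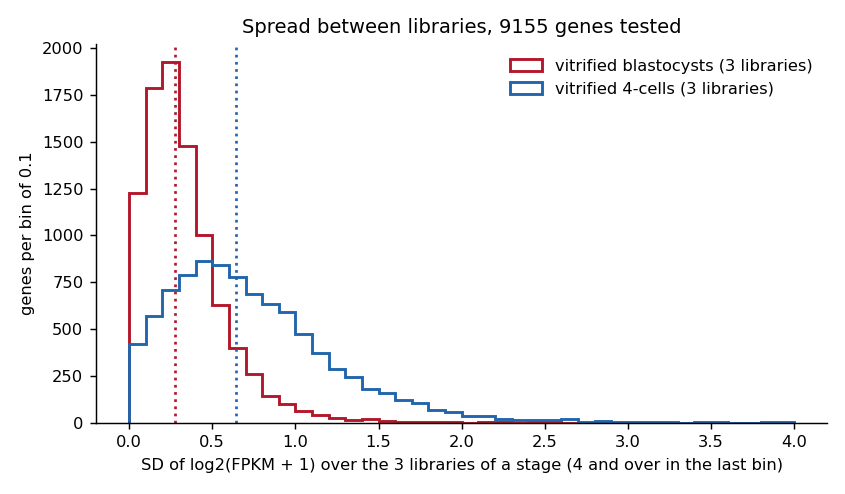
Distribution over 9155 genes of the SD of log2(FPKM + 1) between the 3 vitrified blastocyst libraries (red) and the 3 vitrified 4-cell libraries (blue), in bins of 0.1, with dotted lines at the medians of 0.28 and 0.64. The 4-cell curve is broad and has a long tail to the right, whereas few genes in blastocysts pass an SD of 1.

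Vitrified 4-cell 3 was then compared with the other vitrified 4-cells, in counts chosen after seeing the data. It exceeded both of them by more than 2 on the log2 scale in 562 genes and lay that far below both in 316 genes. For vitrified 4-cell 1 these numbers were 11 and 12, and for vitrified 4-cell 2 they were 26 and 83. In 379 of the 562 high genes, 67.4%, the mean of the vitrified blastocysts was also above the other vitrified 4-cells by more than 1, beside 32.6% of all genes, and in 260 of the 316 low genes, 82.3%, it was below by more than 1, beside 38.0% of all genes. A gene under 1 FPKM in the other vitrified 4-cells could be tested only if blastocysts expressed it. Among the 6506 genes at 1 FPKM or more in all 3 vitrified 4-cells, which were tested whatever the blastocysts did, 224 of 385 high genes, 58.2%, had a higher blastocyst mean, beside 18.4% of all such genes, and 243 of 279 low genes, 87.1%, a lower one, beside 52.3%. Fresh 4-cell 3 exceeded the other fresh 4-cells by that margin in 133 genes, of which 103, 77.4%, had a fresh blastocyst mean above by more than 1, beside 29.7% of all genes, and it lay below in 14, of which 11 had a lower one. These fresh counts were taken over the genes tested in the vitrified transition, some of which passed that filter only through blastocysts. They were not repeated over genes expressed in all fresh 4-cells, so the filter may raise the 77.4%. In both groups the genes were picked, and the blastocysts scored, against the same other 4-cells. An error in those libraries moves both measures the same way, so the shares over all genes are not an equal baseline. How much of the excess this makes was not tested. Deviations from the group mean correlated across genes at 0.22, 0.36 and 0.41 between vitrified and fresh 4-cells with the same replicate numbers 1, 2 and 3, but vitrified 4-cell 1 correlated as much with fresh 4-cell 2, at 0.22, and same-numbered blastocysts correlated at 0.23, 0.05 and 0.001. What the libraries of a number share is not given in the sources used here and was not tested.

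The largest SD among the vitrified 4-cells was 7.03, in the microRNA gene ssc-mir-1285, which had 19336, 72376 and 20942 FPKM in vitrified blastocysts and 5435, 0.115 and 4849.9 FPKM in vitrified 4-cells, so that here replicate 2 was the one apart. FPKM divides by transcript length, which raises the values of short genes. The study's methods describe amplified cDNA libraries, so whether these values stand for the microRNA itself is unknown. Other genes were far higher in vitrified 4-cell 3 than in the other vitrified 4-cells. PDXK, which activates vitamin B6, had 125, 134 and 119 FPKM in vitrified blastocysts, against 0.594, 0.0001 and 90.8 FPKM in vitrified 4-cells. PLP2, a membrane proteolipid, had 339, 248 and 226 FPKM in vitrified blastocysts and 0.0001, 0.0429 and 73.7 FPKM in vitrified 4-cells, and S100A14 had 83.9, 72.7 and 49.3 FPKM in vitrified blastocysts and 0.310, 0.0001 and 54.5 FPKM in vitrified 4-cells. In all 3 genes vitrified 4-cell 3 was the only 4-cell above 1 FPKM, so they were tested only because blastocysts expressed them. Their closeness to the blastocysts is partly fixed by that filter and is not read as a result. SMIM1 was at 65.4, 66.1 and 64 FPKM in vitrified blastocysts and 4.03, 0.0001 and 80.7 FPKM in vitrified 4-cells. With vitrified 4-cell 2 at 0.0001 FPKM, SMIM1 too was tested only because a blastocyst reached 1 FPKM. Its closeness to the blastocysts is likewise not read as a result. In other genes vitrified 4-cell 3 lay beyond the blastocysts, which were themselves above the other 4-cells by more than 1. IFI30, a lysosomal thiol reductase, had 15.2, 2.9 and 4.11 FPKM in vitrified blastocysts and 2.27, 1.27 and 159 FPKM in vitrified 4-cells. SRSF7, a splicing factor, had 39.2, 23.5 and 56.6 FPKM in vitrified blastocysts and 8.44, 21.9 and 736 FPKM in vitrified 4-cells. Its change was -0.50 with all libraries and 1.39 without vitrified 4-cell 3. Over all 9155 genes tested, 562 were high in vitrified 4-cell 3 by more than 2 and 316 were low. Of the 58 ribosomal proteins 19 were high and none was low, and of 29 genome activation genes 8 were high and none was low. Of 31 proteasome subunits 7 were high and none was low, and of 20 pluripotency genes 6 were high and 2 low. Of 28 oocyte and egg coat genes none was high and 4 were low. Low genes were few among all genes, so their absence from a list is not read as a result. Replicate 3 was also the extreme fresh 4-cell in the mean log2 level of each of these lists. Levels in fresh 4-cells 1, 2 and 3 were 5.95, 5.52 and 7.30 for ribosomal proteins and 3.67, 3.23 and 3.96 for genome activation genes. They were 4.71, 4.58 and 5.33 for proteasome subunits, 3.56, 3.35 and 3.81 for pluripotency genes and 6.73, 6.72 and 6.47 for oocyte genes.

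A further set was high in vitrified 4-cell 3 and low again in blastocysts. In 42 of the 562 genes the blastocyst mean was below the other 4-cells by more than 1, and in 141 it was within 1 of them. KLF4, a zinc finger factor of pluripotent cells, had 1.96, 1.72 and 3.33 FPKM in vitrified blastocysts, against 7.62, 0.607 and 125 FPKM in vitrified 4-cells, and DPPA2, a chromatin factor of early embryos, had 10.9, 17.6 and 9.89 FPKM in vitrified blastocysts and 15.8, 6.34 and 206 FPKM in vitrified 4-cells. RPP25, a subunit of ribonuclease P, was at 2.69, 0.938 and 1.11 FPKM in vitrified blastocysts and 2.02, 0.305 and 120.4 FPKM in vitrified 4-cells. KLF4 and DPPA2 were chosen after their values were seen.

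Some genes varied widely among the blastocysts, where 205 had an SD over 1. SELENOW, a small selenoprotein, varied at both stages, with 22.8, 21.9 and 0.0001 FPKM in vitrified blastocysts and 40.4, 0.0001 and 17 FPKM in vitrified 4-cells. ANG, a secreted ribonuclease, had 17.5, 0.290 and 0.139 FPKM in vitrified blastocysts and 4.74, 1.73 and 0.0322 FPKM in vitrified 4-cells, and C11orf54 had 10.5, 0.221 and 14.8 FPKM in vitrified blastocysts and 2.56, 9.45 and 1.86 FPKM in vitrified 4-cells. FCGR1A, an Fc receptor, was high in vitrified blastocyst 2 alone, with 0.153, 15.9 and 0.239 FPKM in vitrified blastocysts and 4.92, 2.13 and 0.509 FPKM in vitrified 4-cells. None of these 4 genes passed the test between the stages.

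Each vitrified library was projected on the line from the mean of fresh 4-cells, at 0, to the mean of fresh blastocysts, at 1, over 9655 genes. The vitrified blastocysts lay at 1.00, 0.96 and 0.95. Vitrified 4-cells 1 and 2 lay at 0.01 and -0.002, and vitrified 4-cell 3 lay at 0.25. Fresh 4-cells, which define the origin of the line, lay between -0.03 and 0.05. On the line from fresh 2-cells to fresh 4-cells, over 8788 genes, the vitrified 4-cells were at 0.97, 0.67 and 1.51, against 1.13, 0.83 and 1.04 for the fresh 4-cells, and the vitrified blastocysts were at 1.22 to 1.27. On this line vitrified 4-cell 1 thus lay inside the fresh range, vitrified 4-cell 2 below it, and vitrified 4-cell 3 above it and past the blastocysts. Libraries also lay off the line, by a root mean square of 1.24 on the log2 scale for vitrified 4-cell 3. For vitrified blastocysts this distance was 2.27 to 2.39, and for fresh 4-cells 0.36 to 0.52. On the first line it was 1.14 for vitrified 4-cell 3 and 0.37 to 0.49 for fresh 4-cells. A position is thus not a stage of development.

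**Figure D4:**
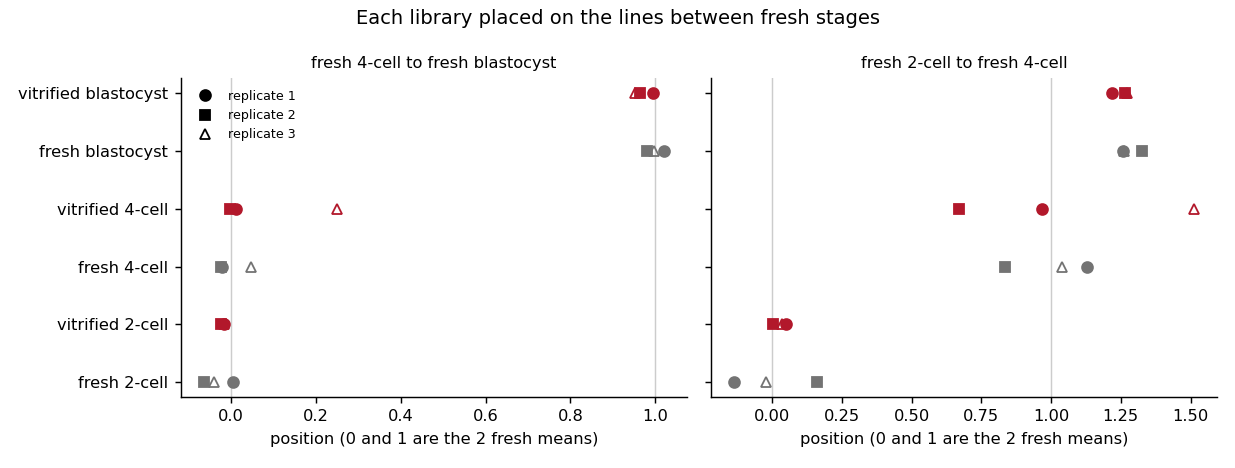
Position of each library on the line from fresh 4-cells to fresh blastocysts (left) and from fresh 2-cells to fresh 4-cells (right), where 0 and 1 are the means of the fresh stages, for vitrified (red) and fresh (grey) libraries with 1 symbol per replicate. Vitrified 4-cell 3 lies at 0.25 and 1.51, away from the other vitrified 4-cells, and the vitrified blastocysts lie together next to the fresh ones.

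The fresh transition gave a second measurement from other libraries. Of 9655 genes tested there, 2626 rose, 27.2%, and 4114 fell, 42.6%. Among the 8772 genes tested in both, 2096 rose in both and 2833 fell in both, which is 91.8% of the vitrified calls and 81.0% of the fresh calls, and 2 genes were called in opposite directions. Across genes, which are not independent replicates, the changes correlated with a Pearson r of 0.96. The median SE was 0.46 in the vitrified and 0.26 in the fresh transition. Of the fresh calls 39.0% were rises, and 49.1% with quantile normalization, 50.5% under the median ratio and 33.0% with an equal sum, so that split moved with the scale.

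Whether a gene changed by different amounts was tested with an interaction term over 12 libraries, and 3 of 10776 genes passed (0.0278%, limma adjusted p under 0.05), while 827 had an unadjusted p under 0.05. HBE1, the embryonic globin, was at 0.851, 2.55 and 20.7 FPKM in vitrified blastocysts, against 492.7, 850.9 and 324.8 FPKM in fresh blastocysts, and was listed at 0.0001 in all vitrified and fresh 4-cells (difference -6.62, SE 0.97, limma adjusted p = 0.0491). HBE1 and HBB made up most of the summed blood cell markers in fresh blastocysts, which was 343.6 to 948 FPKM there, and the part of blood cells in this result was not tested. LYPD6B, a membrane protein of the LY6 family, had 3.78, 2.92 and 1.94 FPKM in vitrified blastocysts and was listed at 0.0001 in the vitrified 4-cells, whereas fresh blastocysts had 0.694, 0.827 and 1.05 FPKM and fresh 4-cells 1.94, 2.79 and 1.88 FPKM (difference 2.71, limma adjusted p = 0.0183). A gene annotated as gamma-crystallin F, without a symbol, was listed at 0.0001 in the vitrified blastocysts and had 36.6, 40.9 and 32.0 FPKM in the vitrified 4-cells, against 0.0001, 2.28 and 0.0001 FPKM in fresh blastocysts and 0.0001 in every fresh 4-cell (difference -5.79, limma adjusted p = 0.0014). Under the alternative settings HBE1 passed in 5 of 23 (adjusted p 0.000289 to 0.378), LYPD6B in 12 of 22 (0.00268 to 0.369) and the crystallin in 22 of 23 (7.71e-05 to 0.0647). With the replicate number as a block, across stages or within each, HBE1 (adjusted p 0.105 and 0.378) and LYPD6B (0.0854 and 0.369) were no longer called.

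Several other genes had low unadjusted p-values without passing the adjustment. APOOL, which shapes the inner mitochondrial membrane, had 67.2, 71 and 76.2 FPKM in vitrified blastocysts and 2.06, 7.45 and 3.35 FPKM in vitrified 4-cells, against 38.9, 20 and 41.7 FPKM in fresh blastocysts and 21.3, 14.3 and 15.6 FPKM in fresh 4-cells (difference 3.02, SE 0.57, limma adjusted p = 0.31). F11R, a tight junction adhesion molecule, was even between the vitrified stages, at 22.2, 30.4 and 35.7 FPKM in vitrified blastocysts and 28, 33.7 and 34.1 FPKM in vitrified 4-cells, whereas it had 16.9, 16.4 and 19.1 FPKM in fresh blastocysts and 91, 88.4 and 58.5 FPKM in fresh 4-cells (difference 1.96, limma adjusted p = 0.396). ATP6V0D2, a subunit of the proton pump, reached 27.4, 27.4 and 34.3 FPKM in vitrified blastocysts and 6.61, 7.39 and 6.26 FPKM in fresh blastocysts (difference 2.17, limma adjusted p = 0.396). For MT2A the changes were -9.06 in the vitrified and -4.10 in the fresh transition, a difference of -4.96 with an SE of 1.55 (limma adjusted p = 0.552).

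**Figure D5:**
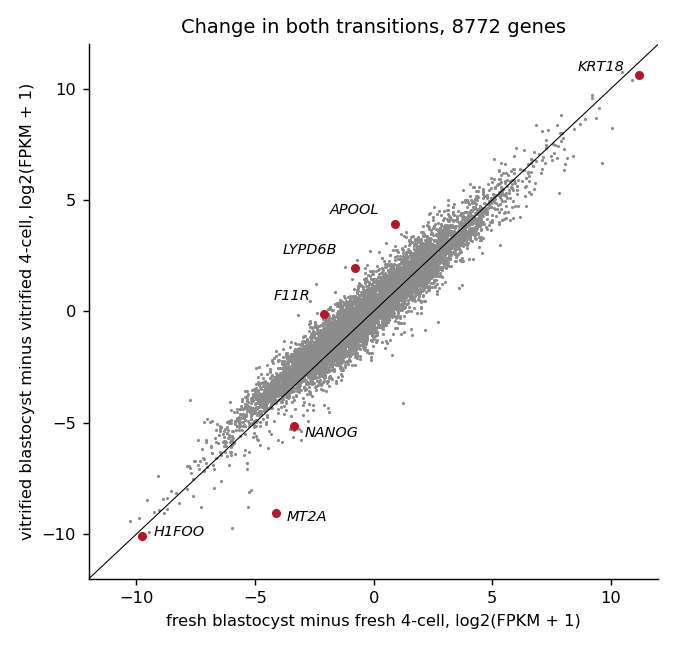
Change from 4-cell to blastocyst in log2(FPKM + 1) for 8772 genes, in the vitrified transition (vertical) and the fresh transition (horizontal), with the line of equal change and 7 named genes in red. Most genes lie along the line (Pearson r of 0.96 across genes), KRT18 and H1FOO at its ends, and LYPD6B, APOOL, F11R and MT2A away from it.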

How the data were processed

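The vitrified transition used 6 libraries of the series and the fresh transition 6 others. According to the study's methods, amplified cDNA libraries were made with SMART-Seq v4 and Nextera XT, whereas the labels describe a small RNA library from Trizol extracts, which was not resolved, and the authors used Cutadapt for trimming, FastQC for quality, Bowtie2 and HISAT2 for mapping, and StringTie for the deposited FPKM values; versions, genome build and annotation are not given in the sources used here. The deposited fold changes, log2 fold changes and p-values compare vitrified with fresh embryos within a stage and were not used. Gene symbols came from the files and, for 951 of 6907 genes without one, from reference gene names. Reads shared by near-identical copies or overlapping genes can be split between them.

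The 4-cell and blastocyst tables were joined by gene and tested with limma 3.58.1 (R 4.3.3, trend on the mean) on log2(FPKM + 1), with Benjamini-Hochberg adjustment over all genes tested and thresholds of 0.05 and a change of 1. The interaction term was fitted over 12 libraries. The p-values measure the spread between libraries labelled as replicates of a group. Transitions were compared across tables that the authors computed separately per stage. Tables were written with Python 3.11.15, pandas 2.3.3 and numpy 2.4.6, and plots with matplotlib 3.10.9. On simulated data for the vitrified transition (8988 genes), 66% of genes changed by 3 and 14% of those changed by 1.5 were called, and 0.262% of unchanged genes. The simulation changed 100 genes by each amount, whereas 5550 of 9155 genes were called in the data. The adjustment depends on the share of changed genes, so these rates do not carry over to the data.

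The transition and the 28 gene lists were chosen with earlier results of these data known. Genes named are the 10 highest and lowest changes among called genes with a symbol, those with the largest SD at each stage, the members of the lists with the largest changes and their defining members, and the lowest p-values of the interaction; AURKC, BMP4, CCNB3, CDC26, CDK6, CDKN1A, CDT1, CNOT1, CNOT2, CNOT6, CNOT6L, CNOT7, CNOT8, CNOT9, DNAJA1, DNAJB1, DPPA2, EGFR, ERBB2, ERBB3, EZR, FDFT1, GRHL2, HDAC1, HK1, HSPA5, KLF4, MDM2, NDUFA1, PABPC4, PLAC1, PPARG, RDX, SLC2A2, SMAD1 and YAP1 were chosen after their values were seen. Alternatives were other pseudocounts, filters, scalings, variance estimates and blocks, and each library left out in turn; scaling to an equal sum, the spread without vitrified 4-cell 3 and over pairs of libraries, the genes expressed in all vitrified 4-cells and the block within each stage were added after seeing the data. Some genes are not reported here.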

Additional observations from a re-analysis of the deposited data

Results flagged for a closer look

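In 3 genes the change from 4-cell to blastocyst differed between the vitrified and the fresh transition by a test of the difference itself (limma interaction term over 12 libraries, adjusted over 10776 genes). HBE1 had a difference of -6.62 on the log2 scale, vitrified minus fresh, with changes of 2.39 in the vitrified transition and 9.01 in the fresh transition (adjusted p = 0.0491). LYPD6B had a difference of 2.71, with changes of 1.93 and -0.78 (adjusted p = 0.0183). The gene annotated as gamma-crystallin F had a difference of -5.79, with changes of -5.22 and 0.57 (adjusted p = 0.0014). HBE1 was not tested in the vitrified transition alone, since it reached 1 FPKM in 2 of its 6 libraries. HBB, a second globin, had 1.8, 3.89 and 35.7 FPKM in vitrified blastocysts and 35.8, 94 and 18 FPKM in fresh blastocysts, and was listed at 0.0001 in every vitrified 4-cell. The calls of HBE1 and LYPD6B were lost with the replicate number as a block, and they passed in 5 of 23 and 12 of 22 alternative settings.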

How the results depend on the processing

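With genes required to average 5 FPKM or more, 1515 rose and 1973 fell in the vitrified transition and 1533 and 2474 in the fresh one, since fewer genes were tested. Leaving out 1 library gave 2134 to 2867 rises and 2534 to 3366 falls in the vitrified transition, and 2498 to 2773 rises and 4041 to 4132 falls in the fresh one. The genes whose change differed between the transitions numbered 3, against 33 with no filter on low values, 15 with weights per library, 1 with quantile normalization, 1 to 5 with a library left out and 827 at an unadjusted p under 0.05. The replicate block across stages left 1 such gene, and so did the block within each stage, without HBE1 and LYPD6B. Replicate numbers did not pair the vitrified stages: deviations of same-numbered vitrified blastocysts and 4-cells correlated at -0.09, -0.01 and -0.06. With the replicate block 191 of 195 named genes tested kept their call. With no filter 170 did, and with quantile normalization 192. SRSF7, at -0.50, ranged with a library left out from -1.76 without vitrified 4-cell replicate 1 to 1.39 without replicate 3, and was 1.40 with weights per library. The median SD of the vitrified 4-cells was 0.30 without that library. On the line from fresh 2-cells to fresh 4-cells, vitrified blastocysts 1, 2 and 3 lay at 1.12, 1.17 and 1.18 with a pseudocount of 0.1, at 1.31, 1.36 and 1.36 with a mean of 5 FPKM, at 1.11, 1.15 and 1.15 with quantile normalization and at 1.32, 1.37 and 1.37 under the median ratio. The cause of these shifts was not tested. Of 56 list counts, 19 moved by more than 1.5 times with the mean filter, 19 with no filter, and 4 to 11 with a library left out. Depth is unknown, so that a gene listed at 0.0001 may be present below what a library could show.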
